A study of Mus musculus with 3 samples.

Results

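Plasmacytoid dendritic cells of the mouse liver were picked out of 3 single-cell RNA libraries by their own transcripts. Barcodes counted as cells from 1000 UMIs (unique molecular identifiers, each counting 1 captured RNA molecule) and 300 genes upward, with mitochondrial UMIs making up no more than 20%. A cell was a member when Siglech, Ccr9, Cox6a2 and Klk1 together gave at least 4 UMIs, Cd79a and Ms4a1, both B cell genes, gave at most 1 UMI, and Clec4f, Vsig4 and Cd5l, all Kupffer cell genes, gave under 20 UMIs per 10000. The members were thus chosen by their UMIs of these genes. The rule found 243 members among 8087 cells, of which 128 lay in IDD+HID, 85 in IDD+HTF and 30 in IDD.

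Each library came from the liver of 1 wild-type mouse, and all 3 mice had eaten an iron-deficient diet (IDD, 2 to 6 ppm iron) for 1 week. The IDD+HID mouse was then switched for 18 h to a diet with 2% carbonyl iron, the IDD+HTF mouse received 10 mg of holo-transferrin, the iron-loaded plasma iron carrier, by intravenous injection, and the IDD mouse was the control and received neither. The sources used here give neither the age of the mice nor how long after the injection the liver was taken. Hepatocytes and the other liver cells were separated and mixed again at a set ratio before loading on 10x Genomics Chromium droplets, so a share of cells depends on that ratio too. Because a group is a single mouse, no difference between groups was tested or checked in replicates: every interval below is an exact 95% interval that covers counting error only, and a difference between libraries may be a difference between mice or between preparations.

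Plasmacytoid dendritic cells are a small, round dendritic lineage that senses viral and self nucleic acids in endosomes through Tlr7 and Tlr9 and answers with type I interferon through Irf7. Their identity is held by the transcription factor Tcf4 (E2-2), with Irf8, Spib and Runx2 acting beside it, and in the mouse the surface lectin Siglech and the antigen Bst2 are their usual labels. Resting cells hold a large secretory apparatus, and in the liver they lie among sinusoidal endothelium, Kupffer cells and lymphocytes, whose iron handling differs from theirs: Kupffer cells recycle red cell iron and export it through ferroportin (Slc40a1).

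The label of the members held for 216 of the 243. The check used 7 genes that are no part of the rule (Bst2, Tcf4, Irf8, Spib, Runx2, Ly6d and Pacsin1) and T cell genes. The members with at least 10 UMIs of the 7 genes and under 3 UMIs of the T cell genes Cd3e, Cd3d, Cd3g and Trac are called core members here, a class drawn after their values had been seen: 119 in IDD+HID, 72 in IDD+HTF and 25 in IDD. Core members held a median of 76 UMIs of the 4 rule genes in IDD+HID, 65.5 in IDD+HTF and 67 in IDD, with ranges of 4 to 172 UMIs for IDD+HID, 9 to 111 for IDD+HTF and 6 to 173 for IDD. Their median of the 7 other genes was 167 UMIs in IDD+HID, 126 in IDD+HTF and 125 in IDD, with ranges of 12 to 414 UMIs for IDD+HID, 43 to 175 for IDD+HTF and 15 to 243 for IDD.

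The other 27 members went against the label. Of these, 17 carried T cell receptor complex genes (8 in IDD+HID, 5 in IDD+HTF and 4 in IDD) and had met the rule through Ccr9, the gut-homing chemokine receptor that T cells also use, with 4 to 73 UMIs of the T cell genes in IDD+HID, 8 to 31 in IDD+HTF and 8 to 42 in IDD. A further 8 members (0 in IDD+HID, 7 in IDD+HTF and 1 in IDD) carried pancreatic acinar enzymes: they met the rule through Klk1 (10 to 218 UMIs in IDD+HTF and 70 UMIs in IDD), had no Siglech, Ccr9 or Cox6a2 UMI, and held 883 to 9744 UMIs of 6 acinar enzyme genes in IDD+HTF and 5329 in IDD. The remaining 2 members, with 4 and 5 UMIs of the rule genes, held 5 and 4 UMIs of the 7 other genes. Because these 27 cells moved the level of several genes, the comparisons below are given for the core members. The counts of each gene list over all 243 members stand beside them where they differ, and so do the ratios over all members of genes whose call changes.

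Cells near the edges of the rule were few. Exactly 4 UMIs of the rule genes were held by 3 members in IDD+HID, 1 in IDD+HTF and 1 in IDD, while 11 cells of IDD+HID, 6 of IDD+HTF and 2 of IDD fell just outside with 3 UMIs. The B cell limit removed 4 cells and the Kupffer limit 1 cell, all from IDD+HID. Outside the rule, 165 cells of IDD+HID, 47 of IDD+HTF and 14 of IDD held at least 40 UMIs of the 7 other genes, which B cells (Ly6d, Spib, Tcf4) and conventional dendritic cells (Irf8) also express.

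**Figure D1:**
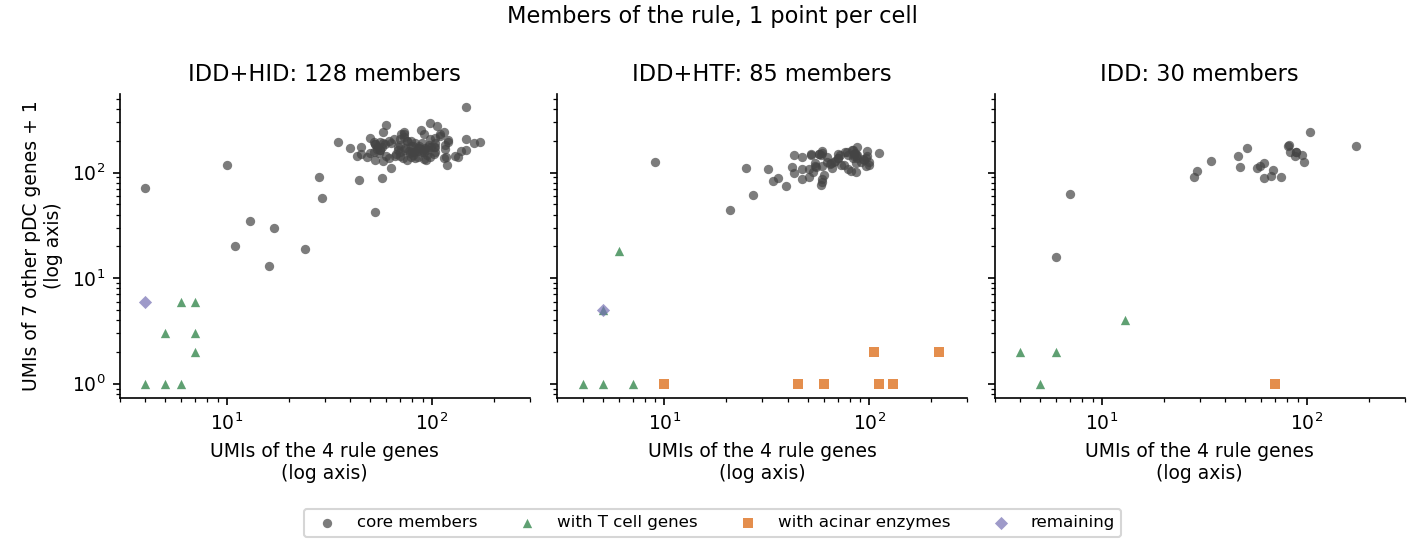
Each point is 1 member, with the UMIs of the 4 rule genes on the horizontal axis and the UMIs of the 7 other plasmacytoid dendritic cell genes plus 1 on the vertical axis (both log axes), 1 panel per library, coloured by class. The 119, 72 and 25 core members of IDD+HID, IDD+HTF and IDD form a cloud at the upper right, and 26 of the 27 other members, which carry T cell genes, acinar enzymes or neither, lie below it, while 1 with T cell genes has 17 UMIs of the 7 genes.

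Depth differed between the libraries in the same order as the number of cells. The libraries held 75404660 UMIs in IDD+HID, 55478904 in IDD+HTF and 34552858 in IDD over all barcodes, and their cells had median UMIs of 8608 in IDD+HID, 4467 in IDD+HTF and 3649 in IDD. Core members had medians of 11328 UMIs and 3737 genes in IDD+HID, 9109 UMIs and 3209 genes in IDD+HTF, and 8550 UMIs and 3070 genes in IDD. Mitochondrial UMIs made up a median of 3.22% in IDD+HID, 3.46% in IDD+HTF and 3.55% in IDD. Their summed counts were 1383163 UMIs in IDD+HID, 655372 in IDD+HTF and 223353 in IDD, so the IDD sum sets the precision of every comparison with it. Each pair of libraries shared 1 cell barcode. No doublet caller was run: of the core members, 15 in IDD+HID, 4 in IDD+HTF and 3 in IDD held at least 3 UMIs of the endothelial genes Stab2, Clec4g, Kdr and Gpr182.

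Markers of other liver cell types also gave UMIs in the core members, at levels that differed between libraries. The 10 hepatocyte markers summed to 2029 UMIs per 1000000 (CPM) in IDD+HID, 1625 in IDD+HTF and 873 in IDD, with none of the 10 at 0. However, 1 core member of IDD held 121 of the 195 UMIs. The highest cell held 482 of 2806 in IDD+HID and 172 of 1065 in IDD+HTF. Per cell, the median was 10.3 UMIs per 10000 in IDD+HID, 9.89 in IDD+HTF and 3.09 in IDD. The 10 sinusoidal endothelial markers summed to 866 CPM in IDD+HID, 725 in IDD+HTF and 345 in IDD, again with none at 0. Kupffer markers summed to 35.4 CPM in IDD+HID (3 of 10 at 0) and 38.1 CPM in IDD+HTF (2 of 10 at 0), and all 10 were at 0 in IDD. T cell, NK cell, neutrophil, stellate and erythroid markers each summed to under 36 CPM in every library. The T cell sum is limited by the definition of core members. Monocyte markers summed to 2350 CPM in IDD+HID, 2260 in IDD+HTF and 2673 in IDD. In all other cells they summed to 1622 CPM in IDD+HID, 1837 in IDD+HTF and 1149 in IDD. Type 1 conventional dendritic cell markers summed to 626 CPM in IDD+HID, 432 in IDD+HTF and 497 in IDD in core members. In all other cells these summed to 334 CPM in IDD+HID, 305 in IDD+HTF and 396 in IDD. Type 2 markers summed to 766 CPM in IDD+HID, 623 in IDD+HTF and 725 in IDD in core members. Their sum in all other cells was 266.5 CPM in IDD+HID, 253 in IDD+HTF and 215 in IDD. Monocyte and conventional dendritic markers thus stood higher in core members than in all other cells. Albumin (Alb) in core members was 5.50% of its level in droplets with at most 100 UMIs in IDD+HID, 4.39% in IDD+HTF and 4.79% in IDD. The part of RNA from other cells in the differences between libraries was not tested, and its values are given beside the genes it touches.

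Plasmacytoid dendritic cells made up 3.61% of cells in IDD+HID (128 of 3545, exact Clopper-Pearson interval 3.02% to 4.28%). The share was 2.65% in IDD+HTF (85 of 3208, interval 2.12% to 3.27%) and 2.25% in IDD (30 of 1334, interval 1.52% to 3.19%). Over core members alone the shares were 3.36% in IDD+HID (interval 2.79% to 4.00%), 2.24% in IDD+HTF (interval 1.76% to 2.82%) and 1.87% in IDD (interval 1.22% to 2.75%). The core interval of IDD+HID overlapped that of IDD+HTF at its edge and lay above that of IDD, and the intervals of IDD+HTF and IDD overlapped. Among the cells whose hepatocyte markers made up under 10% of UMIs, core members were 3.54% in IDD+HID, 2.54% in IDD+HTF and 2.05% in IDD. More cells passed the cell limits in the deeper libraries, so the denominators are not alike either.

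The rule genes themselves were used to choose the members, so their levels are a description. Siglech, the sialic acid-binding lectin that restrains interferon release, stood at 2856 CPM in IDD+HID, 2711 in IDD+HTF and 2888 in IDD in core members, against 5.35 CPM in IDD+HID, 3.46 in IDD+HTF and 3.35 in IDD in all other cells. Ccr9, the chemokine receptor that guides cells to the gut, stood at 1136 CPM in IDD+HID, 1376 in IDD+HTF and 1101 in IDD. Cox6a2, a cytochrome c oxidase subunit typical of heart and skeletal muscle, stood at 1667 CPM in IDD+HID, 1826 in IDD+HTF and 2136 in IDD. Klk1, a tissue kallikrein, stood at 1012 CPM in IDD+HID, 1364 in IDD+HTF and 1375 in IDD. None of the 4 genes differed by 1.5-fold between libraries: the log2 ratios of all 3 comparisons lay between -0.44 and 0.32. Over all members Klk1 stood at 961 CPM in IDD+HID, 1978 in IDD+HTF and 1359 in IDD, and its ratio passed the fold for IDD+HID over IDD+HTF at 0.486 (0.452 to 0.522). In GRCm38 coordinates Siglech (chr7:55768178-55778925), Cox6a2 (chr7:128205435-128206387) and Klk1 (chr7:44225360-44229618) all lie on chromosome 7, and Ccr9 lies at chr9:123678439-123784330.

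Nearly every core member carried the lectin. Siglech gave a UMI in 99.2% of core members of IDD+HID, 100% of IDD+HTF and 100% of IDD. Cox6a2 gave one in 94.1% of IDD+HID, 93.1% of IDD+HTF and 88.0% of IDD, and Klk1 in 84.9% of IDD+HID, 91.7% of IDD+HTF and 84.0% of IDD. With every cell thinned to 1000 UMIs, Siglech was seen in 90.7% of core members of IDD+HID, 90.7% of IDD+HTF and 90.9% of IDD, and in 0.298% of all other cells of IDD+HID, 0.360% of IDD+HTF and 0.300% of IDD. Within a library the 4 genes were weakly related across core members, with Spearman coefficients between -0.09 and 0.25 over the 119, 72 and 25 cells of IDD+HID, IDD+HTF and IDD, which share a library and differ in depth.

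The genes that set the identity of the lineage held similar levels in the 3 libraries, though these genes entered the definition of core members. Tcf4 stood at 2363 CPM in IDD+HID, 2261 in IDD+HTF and 2086 in IDD, and Irf8, which is needed for several dendritic lineages, at 3600.4 CPM in IDD+HID, 3664 in IDD+HTF and 3474 in IDD. Bst2, the tetherin antigen, stood at 4243 CPM in IDD+HID, 3403 in IDD+HTF and 3559 in IDD. The ets factor Spib stood at 500.3 CPM in IDD+HID, 531 in IDD+HTF and 434 in IDD, and Runx2, which governs exit from bone marrow, at 856 CPM in IDD+HID, 757 in IDD+HTF and 663 in IDD. Pacsin1, an endocytosis adaptor, stood at 288 CPM in IDD+HID, 275 in IDD+HTF and 206 in IDD. Runx2 was nearly confined to core members by level, with 5.23 CPM in IDD+HID, 2.71 in IDD+HTF and 6.06 in IDD in all other cells, while Tcf4 was shared, with 443 CPM in IDD+HID, 389 in IDD+HTF and 369.7 in IDD there.

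Lineage markers that took no part in either definition were also present in every library, except Ptprcap. Rnase6, a ribonuclease, stood at 1328 CPM in IDD+HID, 1257 in IDD+HTF and 1289 in IDD. The inhibitory receptor Lair1 stood at 819 CPM in IDD+HID, 873 in IDD+HTF and 779 in IDD, the surface receptor Cd300c at 505 CPM in IDD+HID, 432 in IDD+HTF and 569 in IDD, and the beta-alanine pathway enzyme Upb1 at 382 CPM in IDD+HID, 369 in IDD+HTF and 367 in IDD. Plac8 stood at 2958 CPM in IDD+HID, 2639.7 in IDD+HTF and 3125 in IDD, and the progranulin gene Grn at 1166 CPM in IDD+HID, 1205 in IDD+HTF and 1169 in IDD, with 573 CPM in IDD+HID, 883 in IDD+HTF and 527 in IDD in all other cells. The natural killer receptor family gene Klra17 stood at 183 CPM in IDD+HID, 221 in IDD+HTF and 224 in IDD, Smim5 at 427 CPM in IDD+HID, 398 in IDD+HTF and 515 in IDD, Atp1b1, a sodium pump subunit, at 442 CPM in IDD+HID, 481 in IDD+HTF and 484 in IDD, and Cd7 at 543 CPM in IDD+HID, 491 in IDD+HTF and 398 in IDD. Lefty1 stood at 215 CPM in IDD+HID, 182 in IDD+HTF and 219 in IDD, and Paqr5 at 143 CPM in IDD+HID, 203 in IDD+HTF and 184 in IDD. Ptprcap was near 0, with 3 UMIs in IDD+HID, 3 in IDD+HTF and 0 in IDD.

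A further set of genes was chosen for the highest ratios of members over all other cells, with at least 10 UMIs in members of every library. Their presence in members and near absence from the rest of the liver follow from that choice and are a description. Several are known from skeletal muscle. Beside Cox6a2, the calcium pump gene Atp2a1 stood at 73.0 CPM in IDD+HID, 59.5 in IDD+HTF and 112 in IDD, against 0.331 CPM in IDD+HID, 0.251 in IDD+HTF and 0 in IDD in all other cells. The muscle phosphoglycerate mutase Pgam2 stood at 102 CPM in IDD+HID, 67.1 in IDD+HTF and 112 in IDD, against 0.391 CPM in IDD+HID, 0.201 in IDD+HTF and 0.160 in IDD in all other cells, and gave a UMI in 33.6% of core members of IDD+HID, 26.4% of IDD+HTF and 32.0% of IDD. B-like cells, which should lack Pgam2, gave no Pgam2 UMI in any library.

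Other genes of this set belong to varied families. The kallikrein Klk1b27, on chromosome 7 like Klk1, could share reads with other kallikreins and stood at 181 CPM in IDD+HID, 197 in IDD+HTF and 358 in IDD. The predicted gene Gm21762 stood at 491 CPM in IDD+HID, 441 in IDD+HTF and 484 in IDD, and Eldr at 262 CPM in IDD+HID, 208 in IDD+HTF and 179 in IDD. Dntt, the terminal transferase of antigen receptor rearrangement, stood at 152 CPM in IDD+HID, 162 in IDD+HTF and 112 in IDD. Havcr1 stood at 111 CPM in IDD+HID, 108 in IDD+HTF and 107 in IDD, the lectin gene Cd209d at 333 CPM in IDD+HID, 343 in IDD+HTF and 416 in IDD, and the olfactory receptor gene Olfr164 at 240.0 CPM in IDD+HID, 179 in IDD+HTF and 237 in IDD. Ighm, the immunoglobulin mu chain, was present too but is shared with B cells. It stood at 1229.8 CPM in IDD+HID, 1212 in IDD+HTF and 1124 in IDD, against 3219.7 CPM in IDD+HID, 2995 in IDD+HTF and 3041 in IDD in B-like cells.

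**Figure D2:**
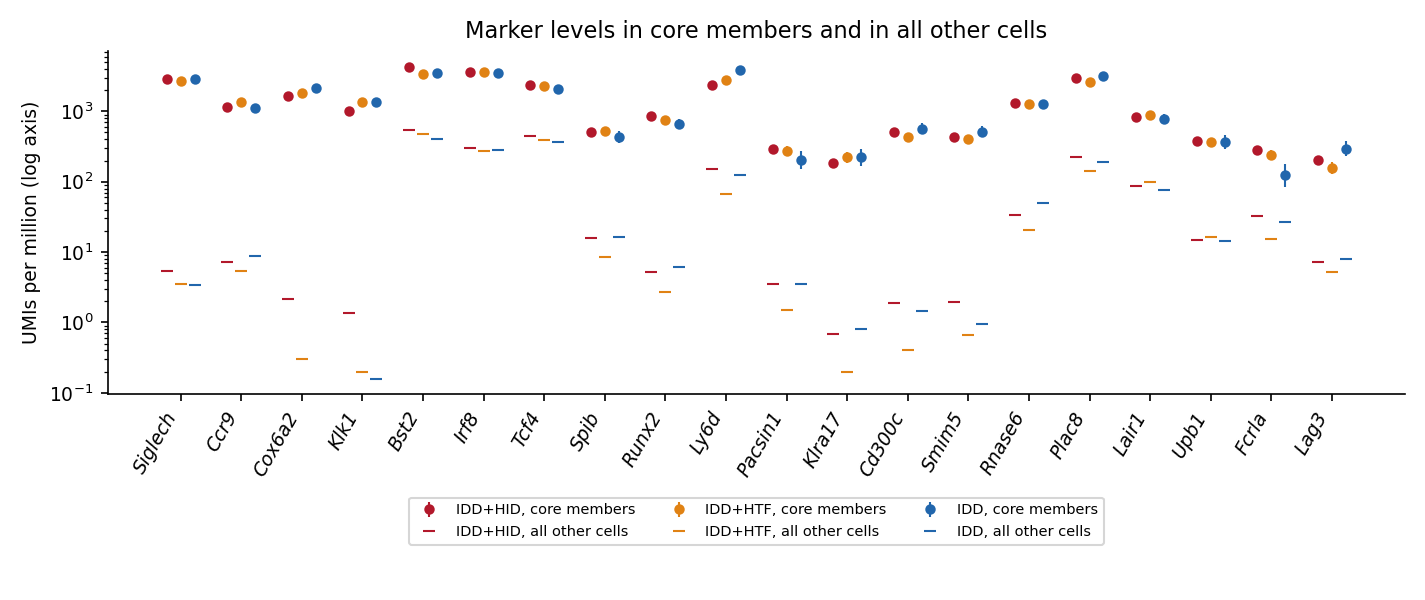
UMIs per 1000000 (log axis) of marker genes in core members (points, with exact 95% counting intervals as bars) and in all other cells (dashes) of IDD+HID, IDD+HTF and IDD. The points of the 3 libraries lie close together for most genes, and Cox6a2 in all other cells of IDD is at 0 and cannot be drawn.

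For the comparisons, UMIs were summed over core members of a library and scaled to 1000000. A gene was measured where at least 10 UMIs were expected in the smaller sum, and it counted as higher or lower at 1.5-fold or more, or at 0.667-fold or less. In core members of IDD+HTF over IDD, 3637 genes were measured and 25.2% of them passed this fold, 16.4% higher and 8.88% lower. In IDD+HID over IDD, 3805 genes were measured and 23.8% passed, 18.4% higher and 5.39% lower. In IDD+HID over IDD+HTF, where both sums were larger, 7337 genes were measured and 18.5% passed, 12.5% higher and 5.97% lower. With TMM scaling in place of total UMIs, the calls of IDD+HTF over IDD were 758 higher and 220 lower, against 595 and 323 by total UMIs, and with median-of-ratios scaling those of IDD+HID over IDD+HTF were 707 higher and 597 lower, against 918 and 438. Over all members, 26.5% of 4121 genes passed in IDD+HTF over IDD (12.7% higher and 13.8% lower, 523 and 569; 908 and 276 with TMM scaling), 27.0% of 4504 in IDD+HID over IDD (20.7% of all measured genes higher and 6.31% lower, 933 and 284) and 26.1% of 8029 in IDD+HID over IDD+HTF (21.5% higher and 4.62% lower, 1728 and 371; 935 and 647 with TMM scaling). A count over a list of genes is read against these shares. Both comparisons with IDD use the same 25 control cells. A lower sum can come from fewer cells with an RNA or from less of it per cell, and the number of cells with a UMI is given where it matters.

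Lineage markers were measured nearly in full. Of 24 listed, 23 were measured: 2 were higher and 1 lower in IDD+HTF over IDD (median log2 ratio 0.01), 1 higher and 1 lower in IDD+HID over IDD (0.04), and none in IDD+HID over IDD+HTF (0.06). Over all members, 5 were higher and 0 lower in IDD+HID over IDD. Fcrla, an intracellular Fc receptor-like protein, stood at 279.8 CPM in IDD+HID, 239.6 in IDD+HTF and 125 in IDD, and its ratio was 1.91 (1.27 to 2.97) for IDD+HTF over IDD and 2.23 (1.52 to 3.40) for IDD+HID over IDD. Fcrla was lower in IDD than in the other 2 libraries. Lag3, an inhibitory receptor, stood at 202 CPM in IDD+HID, 159 in IDD+HTF and 295 in IDD, and its ratio was 0.537 (0.391 to 0.743) for IDD+HTF over IDD and 0.683 (0.520 to 0.907) for IDD+HID over IDD. Ly6d, a gene of the definition, stood at 2392 CPM in IDD+HID, 2742 in IDD+HTF and 3922 in IDD, and its ratio was 0.699 (0.645 to 0.759) for IDD+HTF over IDD and 0.610 (0.566 to 0.658) for IDD+HID over IDD. Over all members the IDD+HID ratio of Ly6d was 0.719 (0.667 to 0.775), within the fold.

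Transcription factors of the lineage passed the fold in shares near those of all genes in the comparisons with IDD. Of 25 listed, 3 of 19 measured were lower and 1 higher in IDD+HTF over IDD, 2 of 18 were lower and 1 higher in IDD+HID over IDD, and 1 of 20 was higher and 1 lower in IDD+HID over IDD+HTF. Over all members, 0 were higher and 3 lower of 19 in IDD+HTF over IDD, 3 higher and 3 lower of 19 in IDD+HID over IDD, and 3 higher and 0 lower of 22 in IDD+HID over IDD+HTF. Tcf4 had a ratio of 1.08 (0.976 to 1.21) for IDD+HTF over IDD and 1.13 (1.03 to 1.25) for IDD+HID over IDD, and Irf8 of 1.05 (0.972 to 1.14) for IDD+HTF over IDD and 1.04 (0.961 to 1.12) for IDD+HID over IDD. Id3, an inhibitor of E proteins such as Tcf4, stood at 178 CPM in IDD+HID, 121 in IDD+HTF and 497 in IDD. Its ratio was 0.243 (0.179 to 0.327) for IDD+HTF over IDD and 0.358 (0.285 to 0.452) for IDD+HID over IDD, but 40 of the 111 IDD UMIs came from 1 cell and 10 of 25 IDD cells held any. Runx1 stood at 75.9 CPM in IDD+HID, 48.8 in IDD+HTF and 157 in IDD, and its ratio was 0.312 (0.187 to 0.518) for IDD+HTF over IDD and 0.484 (0.328 to 0.732) for IDD+HID over IDD. Stat3, the signal transducer of many cytokine receptors, stood at 194 CPM in IDD+HID, 174 in IDD+HTF and 98.5 in IDD, and its ratio was 1.77 (1.11 to 2.93) for IDD+HTF over IDD and 1.97 (1.27 to 3.19) for IDD+HID over IDD. Over all members the IDD+HTF ratio of Stat3 was 1.22 (0.828 to 1.84), within the fold. Id2, the inhibitor that favours other lineages, was lower in IDD+HTF over IDD (0.377), on 21 UMIs in IDD+HTF and 19 in IDD, but its log2 ratio was 0.32 without the cell that held most UMIs in each library, and 0.109 was its ratio over all members.

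Of the endosomal receptors, Tlr7 was well above its level in the rest of the liver and Tlr9 was hardly seen. Tlr7, the receptor for single-stranded RNA, stood at 124 CPM in IDD+HID, 166 in IDD+HTF and 179 in IDD, against 25.7 CPM in IDD+HID, 26.4 in IDD+HTF and 15.5 in IDD in all other cells. The listed sensing genes summed to 6928 CPM in IDD+HID, 6685 in IDD+HTF and 6649 in IDD in core members, against 3852 CPM in IDD+HID, 4255 in IDD+HTF and 3245 in IDD in all other cells. The ratio of Tlr7 was 0.929 (0.641 to 1.37) for IDD+HTF over IDD, 0.694 (0.490 to 1.01) for IDD+HID over IDD and 0.748 (0.585 to 0.959) for IDD+HID over IDD+HTF, none past the fold. Tlr9, the receptor for unmethylated DNA, gave 14 UMIs in IDD+HID, 10 in IDD+HTF and 3 in IDD, too few to compare. Irf7, the factor that switches on interferon genes, stood at 306 CPM in IDD+HID, 249 in IDD+HTF and 322 in IDD and passed the fold in no comparison.

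Of 30 listed sensing genes, 4 of 17 measured were higher and 1 lower in IDD+HTF over IDD, 2 of 16 higher and 0 lower in IDD+HID over IDD, and 4 of 23 higher and 2 lower in IDD+HID over IDD+HTF. Over all members the counts were 3 higher and 2 lower of 18 in IDD+HTF over IDD, 2 and 0 of 17 in IDD+HID over IDD, and 6 and 1 of 23 in IDD+HID over IDD+HTF. Of all genes measured in core members, 16.4% were higher in IDD+HTF over IDD, 18.4% in IDD+HID over IDD and 12.5% in IDD+HID over IDD+HTF. Slc15a4, the lysosomal transporter that endosomal Toll-like receptor signalling needs, stood at 125 CPM in IDD+HID, 232 in IDD+HTF and 112 in IDD. It was highest in IDD+HTF, with ratios of 2.07 (1.35 to 3.30) for IDD+HTF over IDD and 0.539 (0.431 to 0.675) for IDD+HID over IDD+HTF, and its log2 ratios in all other cells had the same signs (0.88 for IDD+HTF over IDD and -0.55 for IDD+HID over IDD+HTF). Lgmn, a lysosomal protease that processes Toll-like receptors, had ratios of 2.63 (1.19 to 6.85) for IDD+HTF over IDD and 1.96 (0.911 to 5.02) for IDD+HID over IDD, on 7 IDD UMIs. Tmem173, encoding the DNA sensing adaptor STING, had ratios of 1.90 (1.11 to 3.46) for IDD+HTF over IDD and 1.59 (0.952 to 2.86) for IDD+HID over IDD. Ifih1, a cytosolic RNA sensor, had 3.24 (1.37 to 9.33) for IDD+HID over IDD+HTF, on 41 UMIs in IDD+HID and 6 in IDD+HTF.

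Interferon genes themselves were nearly silent. Over 20 type I and type III interferon genes, core members gave 4 UMIs in IDD+HID, 0 in IDD+HTF and 0 in IDD, and 0 UMIs allow a summed level of up to 4.58 CPM for IDD+HTF and 13.4 CPM for IDD. All other cells gave 34 UMIs in IDD+HID, 11 in IDD+HTF and 13 in IDD. Of the listed interferon-stimulated genes, 2 of 16 measured were higher and 1 lower in IDD+HTF over IDD (median log2 ratio -0.01), 3 of 17 higher and 0 lower in IDD+HID over IDD (0.17), and 5 of 28 higher and 0 lower in IDD+HID over IDD+HTF (0.14). Over all members, 1 was higher and 3 lower of 17 in IDD+HTF over IDD, 2 higher and 2 lower of 21 in IDD+HID over IDD, and 10 higher and 1 lower of 29 in IDD+HID over IDD+HTF. In core members, 16.4% of all measured genes were higher in IDD+HTF over IDD, 18.4% in IDD+HID over IDD and 12.5% in IDD+HID over IDD+HTF. The higher shares over all members were 12.7%, 20.7% and 21.5% in the same order.

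Isg15, a ubiquitin-like modifier, had the highest ratio of the list over IDD. It gave 87 UMIs in 23 core members of IDD+HID, 58 UMIs in 20 of IDD+HTF and 3 UMIs in 2 of IDD, which made 62.9 CPM in IDD+HID, 88.5 in IDD+HTF and 13.4 in IDD. Its ratio was 6.59 (2.15 to 32.9) for IDD+HTF over IDD and 4.68 (1.55 to 23.1) for IDD+HID over IDD. Over all members, where IDD gave 13 UMIs, Isg15 stood at 67.9 CPM in IDD+HID, 76.7 in IDD+HTF and 46.9 in IDD. The all-member ratio was 1.64 (0.889 to 3.25) for IDD+HTF over IDD, past the fold. It was 1.45 (0.810 to 2.82) for IDD+HID over IDD, within the fold. Isg15 stood at 183 CPM in IDD+HID, 167 in IDD+HTF and 51.5 in IDD in all other cells and at 76.9 CPM in IDD+HID, 54.0 in IDD+HTF and 14.1 in IDD in droplets with at most 100 UMIs. The core level was thus no higher than that of such droplets in IDD+HID and IDD, and higher in IDD+HTF. Ifitm3, an antiviral membrane protein, had ratios of 1.84 (1.21 to 2.92) for IDD+HID over IDD and 2.40 (1.78 to 3.27) for IDD+HID over IDD+HTF. Oasl2, of the oligoadenylate synthetase family, had 2.69 (1.57 to 4.91) for IDD+HID over IDD+HTF, and Epsti1 had 1.68 (1.12 to 2.62) for IDD+HID over IDD in core members and 1.07 (0.794 to 1.46) over all members.

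The secretory apparatus was measured nearly in full. Of 36 listed genes, 33 were measured in IDD+HTF over IDD (3 higher, 3 lower), 33 in IDD+HID over IDD (3 higher, 1 lower) and 34 in IDD+HID over IDD+HTF (0 higher, 1 lower). Over all members the calls were 2 higher and 3 lower of 33 in IDD+HTF over IDD, 5 and 0 of 34 in IDD+HID over IDD, and 2 and 1 of 34 in IDD+HID over IDD+HTF. Of all genes measured in core members, 25.2% passed in IDD+HTF over IDD, 23.8% in IDD+HID over IDD and 18.5% in IDD+HID over IDD+HTF. Xbp1, the transcription factor of the secretory apparatus, stood at 688 CPM in IDD+HID, 552 in IDD+HTF and 394 in IDD, and its ratio was 1.40 (1.11 to 1.79) for IDD+HTF over IDD and 1.75 (1.40 to 2.20) for IDD+HID over IDD. Rpn1, an oligosaccharyltransferase subunit, had ratios of 2.20 (1.16 to 4.60) for IDD+HTF over IDD and 2.20 (1.20 to 4.51) for IDD+HID over IDD, on 11 IDD UMIs. Hspa5, the main endoplasmic reticulum chaperone, had 1.26 (1.06 to 1.49) for IDD+HTF over IDD and 1.27 (1.08 to 1.49) for IDD+HID over IDD. Sec61g, a subunit of the translocon, was higher in IDD+HTF than in both others, with 2.45 (1.63 to 3.81) for IDD+HTF over IDD and 0.337 (0.269 to 0.421) for IDD+HID over IDD+HTF, and moved alike in all other cells (log2 ratios 1.40 for IDD+HTF over IDD and -1.19 for IDD+HID over IDD+HTF).

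Of 16 listed homing receptors, 12 were measured in each comparison: 1 was higher in IDD+HTF over IDD, 1 lower in IDD+HID over IDD, and 1 higher and 1 lower in IDD+HID over IDD+HTF. All members gave 2 higher and 1 lower of 12 in IDD+HTF over IDD, 2 and 1 of 12 in IDD+HID over IDD, and 1 and 2 of 13 in IDD+HID over IDD+HTF. The share of all measured genes past the fold was 25.2% in core members and 26.5% over all members for IDD+HTF over IDD. It was 23.8% and 27.0% for IDD+HID over IDD, and 18.5% and 26.1% for IDD+HID over IDD+HTF. Cxcr3, a receptor for interferon-induced chemokines, stood at 106 CPM in IDD+HID, 58.0 in IDD+HTF and 85.1 in IDD, and its ratio was 1.82 (1.27 to 2.67) for IDD+HID over IDD+HTF.

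**Figure D3:**
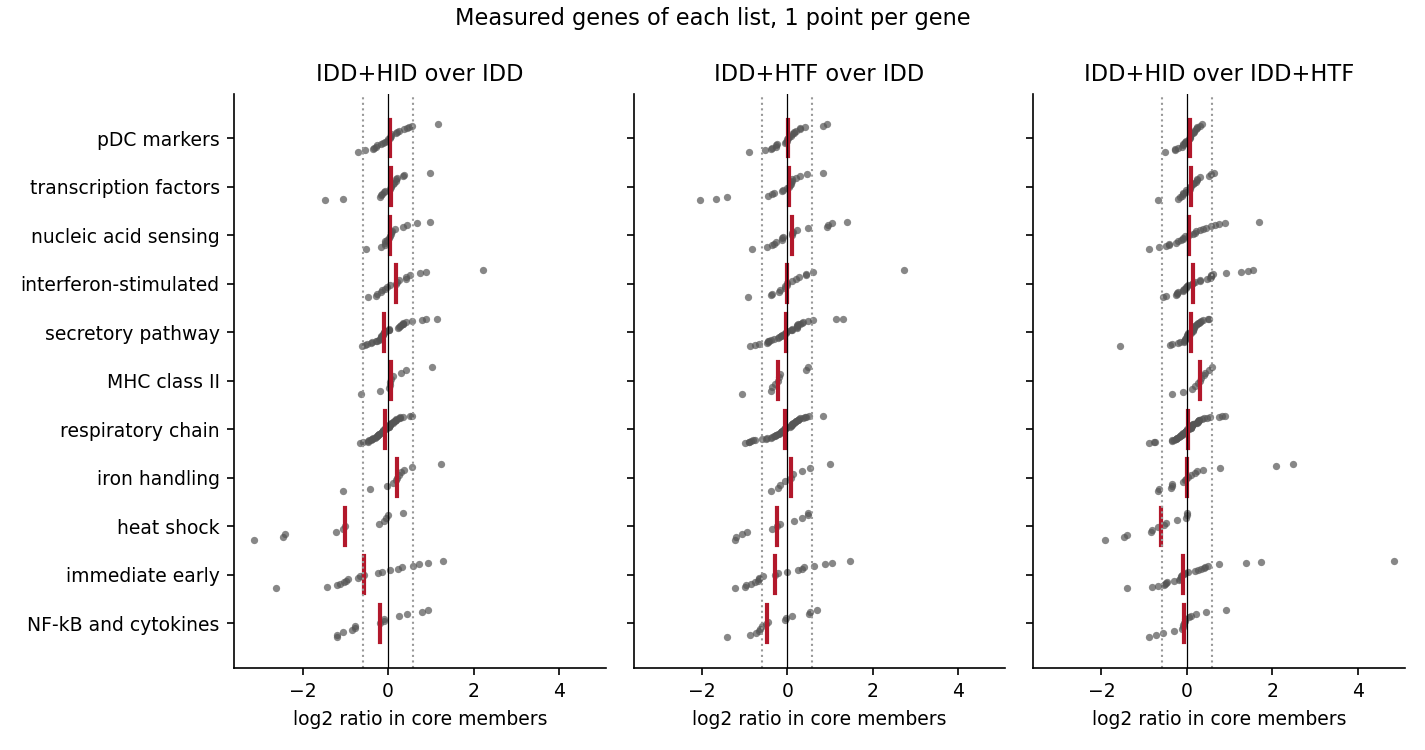
Log2 ratio of each measured gene of several gene lists in core members, 1 row per list and 1 panel per comparison (IDD+HID over IDD, IDD+HTF over IDD, IDD+HID over IDD+HTF). Each point is a gene, the red bar is the median of the list and the dotted lines mark the 1.5-fold limits. The medians of heat shock genes (-1.00) and immediate early genes (-0.57) lie furthest to the left in IDD+HID over IDD, while that of the lineage markers lies at 0.04.

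The mice were given different amounts and routes of iron. Iron handling genes passed the fold 1 or 2 times over IDD, where 25.2% (IDD+HTF) and 23.8% (IDD+HID) of all measured genes passed. They passed 5 times of 16 between the mice given iron, where 18.5% of all measured genes passed. Of 30 listed, 9 were measured in IDD+HTF over IDD (1 higher, 0 lower, median log2 ratio 0.07), 11 in IDD+HID over IDD (1 higher, 1 lower, 0.20) and 16 in IDD+HID over IDD+HTF (3 higher, 2 lower, 0.00). All members gave 1 higher and 0 lower of 10 in IDD+HTF over IDD and 2 and 1 of 11 in IDD+HID over IDD. In IDD+HID over IDD+HTF they gave 3 and 1 of 17, where 26.1% of all genes measured over all members passed. In core members the 1 gene higher over IDD was Trf in both comparisons. Hamp had the highest ratio between the mice given iron. Both are hepatocyte genes and are described below. Fth1, the ferritin heavy chain that stores iron, stood at 7896 CPM in IDD+HID, 7382 in IDD+HTF and 7011 in IDD in core members, against 3137 CPM in IDD+HID, 3198 in IDD+HTF and 2325 in IDD in all other cells. Its ratio was 1.05 (0.994 to 1.12) for IDD+HTF over IDD and 1.13 (1.07 to 1.19) for IDD+HID over IDD. Ftl1, the ferritin light chain, stood at 2068 CPM in IDD+HID, 1584 in IDD+HTF and 1799.8 in IDD, and its ratio was 0.880 (0.784 to 0.990) for IDD+HTF over IDD, 1.15 (1.03 to 1.28) for IDD+HID over IDD and 1.31 (1.22 to 1.40) for IDD+HID over IDD+HTF. The log2 ratio of Ftl1 for IDD+HID over IDD was 0.20 in core members and 0.99 in all other cells.

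Tfrc, the transferrin receptor that takes up the iron carrier, stood at 167 CPM in IDD+HID, 217 in IDD+HTF and 224 in IDD in core members, above its level in all other cells (22.0 CPM in IDD+HID, 33.6 in IDD+HTF and 34.9 in IDD). Its ratio was 0.968 (0.697 to 1.36) for IDD+HTF over IDD, 0.746 (0.547 to 1.03) for IDD+HID over IDD and 0.771 (0.623 to 0.957) for IDD+HID over IDD+HTF, none past the fold. Ncoa4, the receptor that delivers ferritin to lysosomes, stood at 82.4 CPM in IDD+HID, 129.7 in IDD+HTF and 170.1 in IDD and was the iron gene that was lower in IDD+HID over IDD. Its ratio was 0.762 (0.514 to 1.15) for IDD+HTF over IDD, 0.484 (0.333 to 0.719) for IDD+HID over IDD and 0.635 (0.476 to 0.852) for IDD+HID over IDD+HTF. Over all members its ratio for IDD+HID over IDD+HTF was 0.734 (0.552 to 0.981), within the fold. All other cells had a log2 ratio of 0.29 for Ncoa4 in IDD+HID over IDD, against -1.05 in core members.

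The iron exporter gene Slc40a1 and the heme oxygenase gene Hmox1 were near 0 in core members. Slc40a1 gave 20 UMIs in IDD+HID, 12 in IDD+HTF and 0 in IDD, against 978 CPM in IDD+HID, 1105 in IDD+HTF and 619 in IDD in all other cells, and Hmox1 gave 10 UMIs in IDD+HID, 4 in IDD+HTF and 3 in IDD. The 16 listed heme handling genes, among them synthesis and breakdown enzymes, summed to 447 CPM in IDD+HID, 389 in IDD+HTF and 430 in IDD. Trf, the plasma transferrin gene that hepatocytes express, had ratios of 1.99 (1.32 to 3.12) for IDD+HTF over IDD and 2.34 (1.58 to 3.59) for IDD+HID over IDD. The hepatocyte markers of the same cells were higher too, 7 of 8 measured in IDD+HTF over IDD and 8 of 9 in IDD+HID over IDD, and Trf is itself one of the 10. Of all measured genes, 16.4% were higher in IDD+HTF over IDD and 18.4% in IDD+HID over IDD. Hamp, the hepatocyte hormone hepcidin, gave 59 UMIs in IDD+HID, 5 in IDD+HTF and 0 in IDD. The part of hepatocyte RNA in the Trf and Hamp values was not tested.

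**Figure D4:**
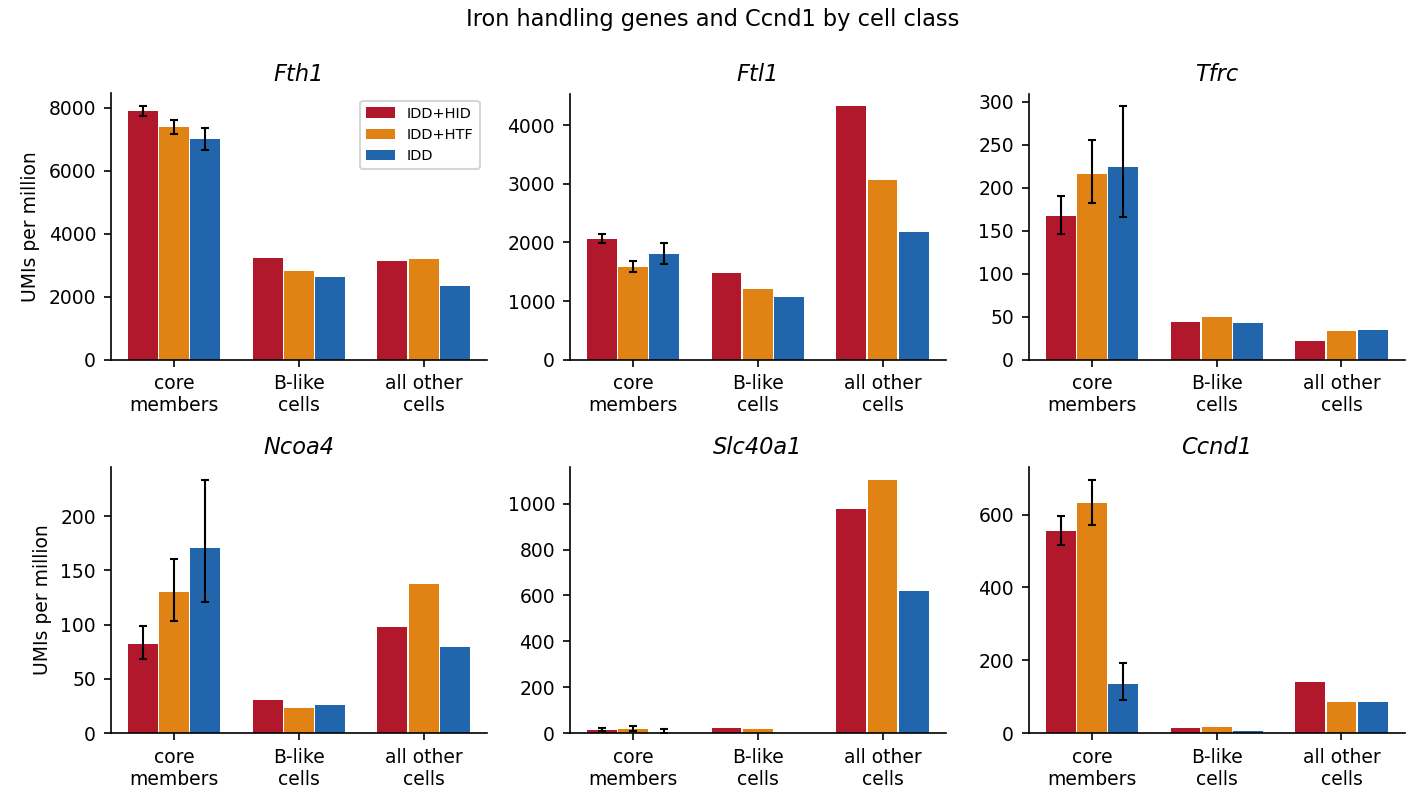
UMIs per 1000000 of 5 iron handling genes and of Ccnd1 in core members, B-like cells and all other cells, with 1 bar per library in the order IDD+HID, IDD+HTF and IDD and exact 95% counting intervals on the bars of core members. Fth1 and Tfrc stand higher in core members than in all other cells in every library, and Slc40a1 stands near 0 in core members.

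Heat shock genes had the lowest median ratio of the plotted lists in IDD+HID over IDD. Of 11 measured in IDD+HTF over IDD, 4 were lower and 0 higher (median log2 ratio -0.23, against 0.06 for all measured genes). Of 11 measured in IDD+HID over IDD, 6 were lower and 0 higher (-1.00, against 0.11), and of 12 measured in IDD+HID over IDD+HTF, 6 were lower and 0 higher (-0.61, against 0.09). Over all members, 4 of 11 were lower in IDD+HTF over IDD, 7 of 11 in IDD+HID over IDD and 4 of 12 in IDD+HID over IDD+HTF, and 0 were higher. Of all genes measured in core members, 8.88% were lower in IDD+HTF over IDD, 5.39% in IDD+HID over IDD and 5.97% in IDD+HID over IDD+HTF. The inducible Hsp70 genes Hspa1b (GRCm38 chr17:34956436-34959238) and Hspa1a (chr17:34969190-34972156), which refold damaged proteins, and their cochaperone Dnajb1 had the lowest ratios of the list in IDD+HID over IDD. Hspa1b gave 243 UMIs in 26 core members of IDD+HID, 433 UMIs in 30 of IDD+HTF and 348 UMIs in 15 of IDD, which made 176 CPM in IDD+HID, 661 in IDD+HTF and 1558 in IDD. Its ratio was 0.424 (0.367 to 0.490) for IDD+HTF over IDD, 0.113 (0.0953 to 0.133) for IDD+HID over IDD and 0.266 (0.226 to 0.312) for IDD+HID over IDD+HTF.

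Hspa1a stood at 188 CPM in IDD+HID, 523 in IDD+HTF and 1007 in IDD, and its ratio was 0.520 (0.438 to 0.617) for IDD+HTF over IDD, 0.187 (0.155 to 0.224) for IDD+HID over IDD and 0.359 (0.305 to 0.423) for IDD+HID over IDD+HTF. However, 118 of its 225 IDD UMIs came from 1 cell. Without the cell that held most UMIs in each library, the log2 ratio of Hspa1a was 0.000165 for IDD+HTF over IDD and -1.60 for IDD+HID over IDD, so the difference between IDD+HTF and IDD rests on that cell. Dnajb1 stood at 76.6 CPM in IDD+HID, 201 in IDD+HTF and 421 in IDD, and its ratio was 0.479 (0.365 to 0.630) for IDD+HTF over IDD, 0.182 (0.137 to 0.243) for IDD+HID over IDD and 0.380 (0.292 to 0.495) for IDD+HID over IDD+HTF. Hspa8, the constitutive Hsc70, stood at 381 CPM in IDD+HID, 385 in IDD+HTF and 886 in IDD, and its ratio was 0.434 (0.359 to 0.525) for IDD+HTF over IDD, 0.430 (0.364 to 0.509) for IDD+HID over IDD and 0.991 (0.851 to 1.16) for IDD+HID over IDD+HTF. Its level was close in IDD+HID and IDD+HTF and higher in IDD.

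Hsp90aa1, the inducible Hsp90, stood at 582 CPM in IDD+HID, 934 in IDD+HTF and 1209 in IDD, and its ratio was 0.772 (0.668 to 0.895) for IDD+HTF over IDD and 0.481 (0.419 to 0.555) for IDD+HID over IDD. Hsph1, an exchange factor for Hsp70, stood at 49.2 CPM in IDD+HID, 87.0 in IDD+HTF and 98.5 in IDD, and its ratio was 0.883 (0.531 to 1.52) for IDD+HTF over IDD and 0.499 (0.305 to 0.848) for IDD+HID over IDD. The constitutive Hsp90ab1 did not pass the fold, with 1.10 (0.988 to 1.23) for IDD+HTF over IDD and 0.936 (0.844 to 1.04) for IDD+HID over IDD.

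Per cell, the sum of Hspa1a, Hspa1b and Dnajb1 had a median of 0.895 UMIs per 10000 in IDD+HID, 2.70 in IDD+HTF and 19.4 in IDD. The highest cells had 60.6 UMIs per 10000 in IDD+HID, 144 in IDD+HTF and 163 in IDD. At least 3 UMIs were held by 32 of 119 core members of IDD+HID, 36 of 72 of IDD+HTF and 16 of 25 of IDD. The libraries overlapped: each had core members with no UMI of these genes and some with many. The core level of Hspa1b lay below that of droplets with at most 100 UMIs in IDD+HID and above it in IDD+HTF and IDD, where such droplets held 300 CPM in IDD+HID, 312 in IDD+HTF and 140.3 in IDD.

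The order of the libraries was the same in B-like cells, where Hspa1b stood at 295 CPM in IDD+HID, 2169 in IDD+HTF and 3918 in IDD, with log2 ratios in IDD+HID over IDD of -3.73 for Hspa1b, -4.32 for Hspa1a and -1.71 for Dnajb1. Over all other cells together the log2 ratios were smaller, -0.63 for Hspa1b, -0.44 for Hspa1a and -0.05 for Dnajb1.

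**Figure D5:**
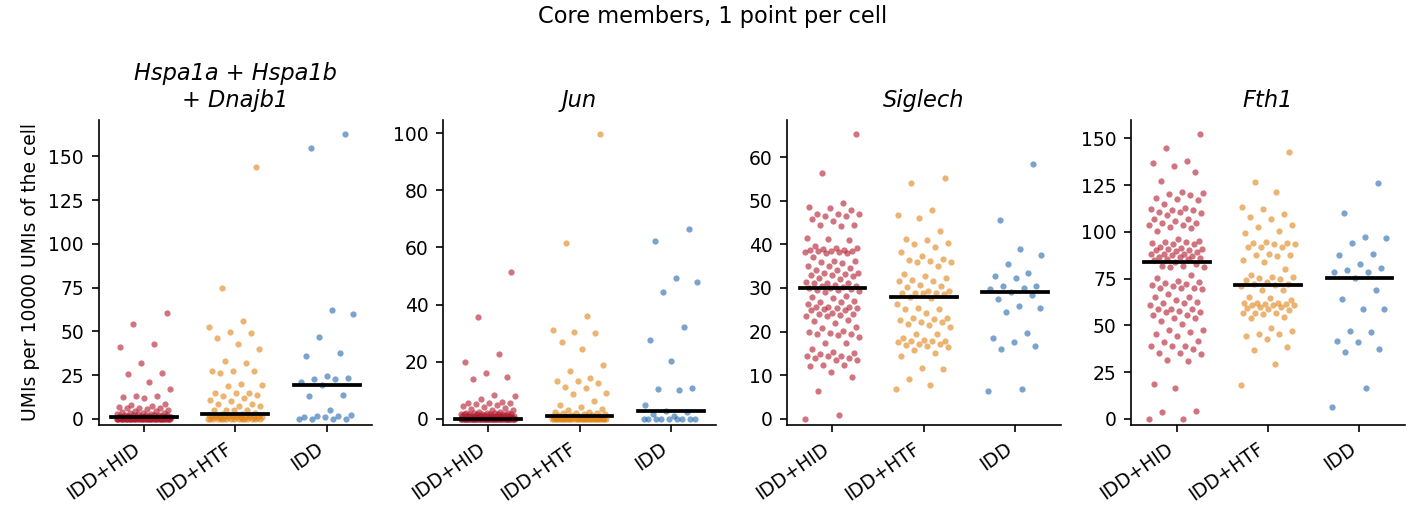
Each point is 1 core member (119 in IDD+HID, 72 in IDD+HTF and 25 in IDD), with UMIs per 10000 UMIs of the cell on the vertical axis, in panels for the sum of Hspa1a, Hspa1b and Dnajb1, for Jun, for Siglech and for Fth1, and a line at the median. The heat shock sum has its lowest median in IDD+HID, 0.895, and its highest in IDD, 19.4, with overlap between all 3 libraries.

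The stretches of 150 bases upstream of the RefSeq start sites (GRCm38.p6) are shown for 4 genes that were lower in IDD+HID over IDD and that hold a heat shock element core, GAANNTTC or TTCNNGAA on either strand (both letter strings are palindromes, so each reads alike on the other strand). The matches are in capitals. These genes were picked because they met both conditions. Jun is not on the heat shock list, and no share with a match was taken over the other immediate early genes or over all lower genes. Of all 32851 promoters in the table, 7.73% hold a match in the same window. Of the 11 listed heat shock genes found in it, 7 do, where a gene counts if any of its promoters holds a match. The genes Dnaja1, Hspb1, Hspd1 and Hspe1 hold a match but were not among the heat shock genes lower in IDD+HID over IDD. Hspa8 and Hsp90aa1 were lower there but were not found among these promoters. Dnajb1 holds neither string in this window, which says nothing of the factor. A match is a description of the letters and is not a bound site. The Hspa1a stretch lies at chr17:34972157-34972306, the Hspa1b stretch at chr17:34959239-34959388, the Hsph1 stretch at chr5:149636337-149636486 and the Jun stretch at chr4:95052223-95052372, all on the minus strand.
Hspa1a: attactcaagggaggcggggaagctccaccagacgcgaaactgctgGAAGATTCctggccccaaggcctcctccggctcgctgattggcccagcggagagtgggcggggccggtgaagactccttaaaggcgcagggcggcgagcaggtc
Hspa1b: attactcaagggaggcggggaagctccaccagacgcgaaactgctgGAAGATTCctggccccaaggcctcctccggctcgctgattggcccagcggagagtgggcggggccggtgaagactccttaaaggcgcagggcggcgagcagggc
Hsph1: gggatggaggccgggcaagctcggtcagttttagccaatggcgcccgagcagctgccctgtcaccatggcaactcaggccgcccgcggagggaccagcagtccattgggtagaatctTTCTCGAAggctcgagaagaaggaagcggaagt
Jun: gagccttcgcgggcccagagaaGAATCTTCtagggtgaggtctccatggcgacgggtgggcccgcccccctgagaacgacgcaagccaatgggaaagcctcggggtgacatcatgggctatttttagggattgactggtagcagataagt

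The Hspa1a and Hspa1b stretches differ at 1 base, and the 2 genes are a near-identical pair, so the counting step could split or drop their reads and their separate levels are uncertain.

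Immediate early genes, which respond within minutes to signals and stress, moved both ways. Of 29 listed, 19 were measured in IDD+HTF over IDD (4 higher, 8 lower, median log2 ratio -0.29), 19 in IDD+HID over IDD (4 higher, 9 lower, -0.57) and 26 in IDD+HID over IDD+HTF (4 higher, 3 lower, -0.09). All members gave 3 higher and 9 lower of 20 in IDD+HTF over IDD, 4 and 10 of 21 in IDD+HID over IDD, and 7 and 2 of 26 in IDD+HID over IDD+HTF. Of all genes measured in core members, 16.4% were higher and 8.88% lower in IDD+HTF over IDD, and 18.4% and 5.39% in IDD+HID over IDD. Jun, a subunit of the AP-1 factor, stood at 277 CPM in IDD+HID, 726 in IDD+HTF and 1706 in IDD in core members, from 383 UMIs in IDD+HID, 476 in IDD+HTF and 381 in IDD. Its ratio was 0.426 (0.371 to 0.488) for IDD+HTF over IDD, 0.162 (0.140 to 0.188) for IDD+HID over IDD and 0.381 (0.332 to 0.437) for IDD+HID over IDD+HTF. All other cells had the opposite order, with Jun at 1771 CPM in IDD+HID, 1537 in IDD+HTF and 1187 in IDD. Summed over the listed genes, core members held 7458 CPM in IDD+HID, 8403 in IDD+HTF and 11771 in IDD. B-like cells had the same order, with 13654.5 CPM in IDD+HID, 14352 in IDD+HTF and 15347 in IDD. This sum had the opposite order in all other cells, with 19864 CPM in IDD+HID, 13933 in IDD+HTF and 10714 in IDD. So it did in cells picked by conventional dendritic cell genes, with 21335 CPM in IDD+HID, 17107 in IDD+HTF and 15243 in IDD. Across cells of a library, Hspa1b and Jun had Spearman coefficients of 0.48 over the 119 core members of IDD+HID, 0.34 over the 72 of IDD+HTF and 0.23 over the 25 of IDD, a description of cells that share a library.

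Other immediate early genes were lower over IDD in both mice given iron. Rhob, a small GTPase, stood at 52.1 CPM in IDD+HID, 109.9 in IDD+HTF and 429.8 in IDD, and its ratio was 0.256 (0.186 to 0.351) for IDD+HTF over IDD and 0.121 (0.0880 to 0.166) for IDD+HID over IDD. Klf2, a quiescence factor, had 0.501 (0.436 to 0.576) for IDD+HTF over IDD and 0.457 (0.404 to 0.518) for IDD+HID over IDD. Btg2, an antiproliferative gene, had 0.620 (0.541 to 0.711) for IDD+HTF over IDD and 0.437 (0.385 to 0.497) for IDD+HID over IDD, and Egr1 had 0.589 (0.401 to 0.874) for IDD+HTF over IDD and 0.371 (0.258 to 0.541) for IDD+HID over IDD. A few were higher: Fosb had 2.04 (1.04 to 4.48) for IDD+HTF over IDD and 2.44 (1.29 to 5.19) for IDD+HID over IDD, Nr4a1 had 1.85 (1.18 to 3.03) for IDD+HTF over IDD and 1.64 (1.07 to 2.64) for IDD+HID over IDD, and Klf4 had 2.78 (1.26 to 7.21) for IDD+HTF over IDD and 1.91 (0.889 to 4.91) for IDD+HID over IDD. Fosb rests on 10 IDD UMIs and Klf4 on 7. Fos had 0.630 (0.508 to 0.784) for IDD+HTF over IDD and 0.850 (0.705 to 1.03) for IDD+HID over IDD. Over all members the IDD+HTF ratios were within the fold, 1.00 (0.707 to 1.44) for Egr1 and 0.767 (0.624 to 0.947) for Fos.

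Genes of the NF-kB pathway and its cytokines were lower more often than higher over IDD. Of 14 measured in IDD+HTF over IDD, 6 were lower and 1 higher (median log2 ratio -0.48), of 13 in IDD+HID over IDD, 6 were lower and 2 higher (-0.18), and of 15 in IDD+HID over IDD+HTF, 2 were lower and 1 higher (-0.07). All members gave 8 lower and 0 higher of 16 in IDD+HTF over IDD, 8 and 1 of 16 in IDD+HID over IDD, but 3 lower and 6 higher of 21 in IDD+HID over IDD+HTF. Among all genes measured in core members, 8.88% were lower and 16.4% higher in IDD+HTF over IDD, and 5.39% and 18.4% in IDD+HID over IDD. Over all members the lower shares were 13.8% in IDD+HTF over IDD and 6.31% in IDD+HID over IDD. Nfkbia, the inhibitor that the pathway itself induces, stood at 123 CPM in IDD+HID, 105 in IDD+HTF and 282 in IDD, and its ratio was 0.373 (0.261 to 0.534) for IDD+HTF over IDD and 0.436 (0.325 to 0.591) for IDD+HID over IDD. The adhesion molecule Icam1 had 0.437 (0.270 to 0.731) for IDD+HID over IDD and the deubiquitinase Tnfaip3 0.484 (0.302 to 0.804) for IDD+HID over IDD, on 24 IDD UMIs each. The all-member ratio of Icam1 was 0.270 (0.186 to 0.396). Rel, a subunit of NF-kB, was higher, with 1.91 (1.31 to 2.87) for IDD+HID over IDD.

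Ccnd1 (GRCm38 chr7:144929931-144939925), the D-type cyclin that drives entry into S phase, was higher over IDD in both mice given iron. Its level was 555 CPM in IDD+HID, with an interval of 517 to 596. It was 632 CPM in IDD+HTF, with an interval of 572 to 696, and 134 CPM in IDD, with an interval of 90.6 to 192. These levels came from 768 UMIs in 111 of 119 core members of IDD+HID, 414 UMIs in 66 of 72 of IDD+HTF and 30 UMIs in 14 of 25 of IDD. The ratio was 4.70 (3.24 to 7.06) for IDD+HTF over IDD, 4.13 (2.87 to 6.17) for IDD+HID over IDD and 0.879 (0.779 to 0.993) for IDD+HID over IDD+HTF. The cell with most Ccnd1 UMIs held 24 in IDD+HID, 24 in IDD+HTF and 7 in IDD, and the intervals of IDD+HID and IDD+HTF lay above that of IDD.

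The share of core members with a Ccnd1 UMI, thinned to 1000 UMIs per cell, was 39.8% in IDD+HID, 42.6% in IDD+HTF and 11.6% in IDD, against 10.1% in IDD+HID, 5.41% in IDD+HTF and 6.95% in IDD for all other cells. Unthinned, it was 93.3% in IDD+HID, 91.7% in IDD+HTF and 56.0% in IDD. The log2 ratio in all other cells was 0.00 for IDD+HTF over IDD and 0.71 for IDD+HID over IDD. B-like cells held Ccnd1 at 14.4 CPM in IDD+HID, 17.6 in IDD+HTF and 6.43 in IDD, and droplets with at most 100 UMIs at 31.5 CPM in IDD+HID, 28.4 in IDD+HTF and 14.6 in IDD.

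Cell division itself was rare: Mki67 or Top2a gave a UMI in 15 of 119 core members of IDD+HID, 7 of 72 of IDD+HTF and 1 of 25 of IDD. Of 19 listed cell cycle genes, 6 were measured in IDD+HTF over IDD (2 higher, 1 lower) and 6 in IDD+HID over IDD (4 higher, 1 lower). All members had the opposite balance, with 1 higher and 5 lower of 9 in IDD+HTF over IDD and 2 higher and 4 lower of 8 in IDD+HID over IDD. Among all genes measured in core members, 16.4% were higher and 8.88% lower in IDD+HTF over IDD, and 18.4% and 5.39% in IDD+HID over IDD. Over all members these shares were 12.7% and 13.8% in IDD+HTF over IDD, and 20.7% and 6.31% in IDD+HID over IDD. Ccnd3, another D-type cyclin, stood at 38.3 CPM in IDD+HID, 36.6 in IDD+HTF and 85.1 in IDD, and its ratio was 0.430 (0.226 to 0.831) for IDD+HTF over IDD and 0.450 (0.262 to 0.806) for IDD+HID over IDD, the opposite direction to Ccnd1, on 19 IDD UMIs. Hmgb2, a chromatin protein, had 2.73 (1.59 to 5.02) for IDD+HTF over IDD and 2.37 (1.40 to 4.30) for IDD+HID over IDD in core members. Over all members its log2 ratio was -1.44 for IDD+HTF over IDD and -0.99 for IDD+HID over IDD, and all members held 130 Hmgb2 UMIs in IDD, of which 15 lay in core members. Cdkn1b, the cyclin kinase inhibitor p27, had 1.76 (1.16 to 2.80) for IDD+HID over IDD.

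Among the genes whose interval lay furthest from 1, many in IDD+HTF over IDD were ribosomal genes or copies of them. Rps13-ps1 stood at 157 CPM in IDD+HTF and had 0 UMIs in IDD, at least 11.7-fold higher. Gm10076 had 11.7 (8.34 to 16.8) for IDD+HTF over IDD, Gm5148 8.78 and Rpl30 4.25 in the same comparison, and Rpl17 (0.214) and Rps2 (0.296) were lower. All 6 had the same sign in all other cells, as with Gm10076, whose log2 ratio was 3.54 in core members and 3.11 in all other cells. In all other cells Rps13-ps1 gave 5156 UMIs in IDD+HID, 1044 in IDD+HTF and 1 in IDD. Ribosomal genes and their copies share reads, and although the 3 files list the same 55421 gene identifiers, whether reads of all libraries were assigned alike is not given in the sources. Differences of these genes between libraries are therefore uncertain.

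The genes furthest below 1 in IDD+HID over IDD were Hspa1b, Rhob, Jun, E330020D12Rik (0.124), Hspa1a, Dnajb1, Gm37084 (0.211) and Gem, a GTPase of the Ras superfamily (0.222). E330020D12Rik gave 22 of its 52 IDD UMIs in 1 cell. Among the genes furthest above 1, Ptprb (6.57) came from 14 of 119 cells of IDD+HID, Plpp3 (6.52) from 12 and Ifitm2 (10.3) from 24. Ptprb is an endothelial phosphatase, and 6 of 6 measured endothelial markers were higher in the same comparison, where 18.4% of all measured genes were higher. The part of endothelial RNA in these values was not tested.

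In IDD+HID over IDD+HTF, Egr3, an immediate early transcription factor (28.9), rested on 1 cell that held 49 of 61 UMIs, and its log2 ratio was 0.92 without the top cells. Lyz2, a myeloid lysozyme, had 53 of 83 UMIs in 1 cell of IDD+HID. Rcan1, a calcineurin inhibitor, gave 42 UMIs in IDD+HID, 23 of them in 1 cell, against 2 UMIs in IDD+HTF. Gm48541 was spread over 36 of 119 cells of IDD+HID, against 4 of 72 of IDD+HTF, with 5.57 (2.04 to 21.3) for IDD+HID over IDD+HTF. Lrp4, a lipoprotein receptor relative, was lower, with 0.268 (0.206 to 0.348) for IDD+HID over IDD+HTF, and had a log2 ratio of -2.46 in all other cells.

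Several other lists were counted in the same way. Of all genes measured in core members, 25.2% passed in IDD+HTF over IDD, 23.8% in IDD+HID over IDD and 18.5% in IDD+HID over IDD+HTF. Major histocompatibility class II genes gave 0 higher and 1 lower of 9 measured in IDD+HTF over IDD and 1 higher and 1 lower of 10 in IDD+HID over IDD (2 higher and 0 lower over all members). Class I genes gave 2 lower of 11 in IDD+HTF over IDD and 1 lower of 11 in IDD+HID over IDD, where H2-Q7 had 0.515 (0.450 to 0.591) for IDD+HID over IDD and a log2 ratio of -0.99 in all other cells, against -0.96 in core members. Of 48 nuclear genes of oxidative phosphorylation, 1 was higher and 7 lower in IDD+HTF over IDD, 0 higher and 1 lower in IDD+HID over IDD, and 3 higher and 3 lower in IDD+HID over IDD+HTF, and over all members 6 were lower in IDD+HTF over IDD and 4 higher in IDD+HID over IDD+HTF. Genes that signal from the type I interferon receptor gave 3 higher and 3 lower of 16 in IDD+HTF over IDD, and 2 higher and 1 lower of 15 in IDD+HID over IDD (0 higher and 3 lower of 16, and 3 higher and 2 lower of 16, over all members). Targets of the oxidative stress factor NRF2 gave 3 higher and 1 lower of 12 in IDD+HTF over IDD (2 and 2 of 13 over all members), and 2 higher and 0 lower of 15 in IDD+HID over IDD. Sterol synthesis genes gave 0 higher and 1 lower of 13 in IDD+HTF over IDD, and 1 higher and 1 lower of 13 in IDD+HID over IDD (0 and 2, and 2 and 0, over all members).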

How the data were processed

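Droplet single-cell RNA was measured in 3 libraries, 1 mouse each. The deposited files hold raw UMI counts per gene and barcode for all barcodes, before any cell filter. The submitters' processing notes name Seurat 4 and the build GRCm38, with the read alignment step not given in the sources used here. The files list 55421 gene identifiers, of which 54673 matched GENCODE M21. Members, core members and gene lists were chosen with earlier results of these data known, and core members were drawn after their values had been seen; the design named all members for the comparisons, and their values are given beside where counts or calls differ. B-like cells held at least 4 UMIs of a small set of B cell genes and at most 1 UMI of the rule genes. All other cells are all cells that are not members.

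UMIs were summed per library and class, divided by the total and multiplied by 1000000 (CPM). Ratios of CPM carry exact conditional binomial 95% intervals, levels exact Poisson and shares Clopper-Pearson intervals, all for counting error only, with no test between groups. A gene was measured where at least 10 UMIs were expected in the smaller sum. A fold against a sum at 0 was taken against 3 UMIs in that sum and is a lower bound. Thinned shares are the expectation over all draws of 1000 UMIs per cell. Genes were named by these rules: the rule genes and other lineage markers, 12 fixed genes, the 8 higher and 8 lower genes per comparison whose interval bound nearest 1 lay furthest from 1, up to 4 genes per list with the largest log2 ratio, and the 12 genes with the highest lowest-library ratio over all other cells. Gm48541, Lrp4 and other genes outside the lists came by these rules, while Fos, Hsp90ab1 and Hspa5 were added after their values were seen. The core sums of 1383163, 655372 and 223353 UMIs in IDD+HID, IDD+HTF and IDD set the precision. The ratio and interval code was tested on simulated counts. Python 3.11.15, NumPy 2.4.6, SciPy 1.17.1, pandas 2.3.3 and matplotlib 3.10.9 were used, and edgeR 4.0.16 in R 4.3.3 gave the TMM and median-of-ratios factors only. Doublets were not called. Some genes that the naming rules reached are not reported here. Alternatives to the rule, the cell limits, the scaling and the count minimum were tried.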

Additional observations from a re-analysis of the deposited data

Results flagged for a closer look

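Genes whose direction in core members was opposite to that in all other cells of the same 2 libraries, past 1.5-fold in both, are listed here with both log2 ratios. With 1 mouse per group the difference between the classes was not tested.

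In IDD+HTF over IDD, Fcrla had a log2 ratio of 0.93 in core members and -0.81 in all other cells. Hmgb2 had 1.45 in core members, on 15 IDD UMIs, and -0.83 in all other cells, but over all members it had -1.44, the direction of all other cells. Klf2 had -1.00 in core members and 0.82 in all other cells, Egr1 -0.76 and 0.59, and Fos -0.67 and 0.75. Over all members the ratios of Egr1 and Fos in this comparison were within the fold.

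In IDD+HID over IDD, the E protein inhibitor Id3 had -1.48 in core members and 0.61 in all other cells. The NF-kB targets Tnfaip3 (-1.05 and 0.70), Icam1 (-1.19 and 0.80) and Nfkbia (-1.20 and 0.89) were lower in core members and higher in all other cells. The immediate early genes Klf2 (-1.13 and 0.93), Dusp1 (-1.04 and 1.17) and Egr1 (-1.43 and 1.37) had the same pattern. Hmgb2 (1.24 and -0.84) and Trf (1.23 and -0.81) were higher in core members and lower in all other cells, though over all members Hmgb2 had -0.99. Trf is a hepatocyte gene, and the part of hepatocyte RNA in its value was not tested. All other cells are a mixture whose makeup differs between libraries.

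In IDD+HID over IDD+HTF, Egr1 had -0.67 in core members and 0.79 in all other cells.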

How the results depend on the processing

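No paired analysis was possible because each group is 1 mouse and the groups share replicate number 1 alone. Shares moved by less than their interval in 25 of 27 recomputations, except 3.29% in IDD+HTF with at least 2000 UMIs per cell and 2.96% in IDD+HID without members that held UMIs of another class. Named ratios stayed within their interval in 4458 of 4623 recomputations and changed sign in 6. That tally includes the changed count minimum and its absence, which alter only which genes are measured and cannot move a ratio. It also includes the rule without the Kupffer limit, which adds at most 1 cell, in IDD+HID. The sign changed in IDD+HTF over IDD for Hspa1a (0.000165) and Id2 (0.32) without the cell with most UMIs. It also changed there for Id2 with at least 3 marker UMIs (1.14). Over all members it changed for Hmgb2 (-1.44 in IDD+HTF over IDD, -0.99 in IDD+HID over IDD) and Gatm (-0.44 in IDD+HID over IDD+HTF).

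Counts of genes past the fold moved by over 1.5 times in 38 of 156 recomputations. Over all members, 188 genes were lower in IDD+HID over IDD with at least 10 marker UMIs per 10000. Without members with UMIs of another class, 168 were lower in that comparison and 375 in IDD+HTF over IDD. TMM scaling gave 908 higher and 276 lower in IDD+HTF over IDD and 935 and 647 in IDD+HID over IDD+HTF, and median-of-ratios scaling 911 and 275, and 793 and 771. A minimum of 20 expected UMIs gave 237 higher and 241 lower of 2208 measured genes in IDD+HTF over IDD. It gave 431 and 123 of 2495 in IDD+HID over IDD, and 965 and 201 of 5648 in IDD+HID over IDD+HTF. Without a minimum, every gene with UMIs in both libraries counted as measured, however few the UMIs. That gave 2062 and 4336 of 13109, 3010 and 4053 of 13855, and 4383 and 2676 of 16008 in the same order. Core members gave 323 lower in IDD+HTF over IDD and 918 higher in IDD+HID over IDD+HTF.

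In core members, median-of-ratios scaling gave 213 lower in IDD+HTF over IDD. A minimum of 20 expected UMIs gave 237 higher and 131 lower of 1907 measured genes in IDD+HTF over IDD. It gave 273 and 86 of 2016 in IDD+HID over IDD, and 416 and 198 of 4959 in IDD+HID over IDD+HTF. Without a minimum, and so with all genes that had UMIs in both libraries, the counts were 2309 and 3458 of 12249 in IDD+HTF over IDD. They were 2581 and 3934 of 12956 in IDD+HID over IDD, and 3007 and 2980 of 15453 in IDD+HID over IDD+HTF. The scaling moved the median log2 ratio of all genes in IDD+HTF over IDD to 0.16 (TMM) and 0.17 (median-of-ratios), against 0.06 by total UMIs.

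Of the heat shock genes, 5 to 7 were lower in IDD+HID over IDD, 4 to 6 in IDD+HTF over IDD and 4 to 7 in IDD+HID over IDD+HTF under every alternative run. None was higher, except in IDD+HTF over IDD 1 with at most 10% mitochondrial UMIs, 1 without members with UMIs of another class, 2 with either scaling, 1 with cells weighted equally, 1 without a minimum and 1 without core members with endothelial or neutrophil UMIs, and 1 without a minimum in each of the other 2 comparisons. The alternatives with core members, or without their endothelial or neutrophil UMIs, were chosen after seeing the data. Where no value is given, the cause of a change was not tested. The 25 core members of IDD, with 223353 UMIs, limit every comparison with IDD.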
